A study of Mus musculus with 12 samples.

Results

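Follicular B cells are chiefly known for antibody responses, but they also make chemokines that draw other immune cells, soluble cytokines, and membrane-bound ligands of the tumour necrosis factor (TNF) superfamily that help organise lymphoid follicles. This account covers 10 such genes in mouse splenic follicular B cells with and without Bach2, a DNA-binding protein that represses transcription in B cells. They are the chemokine genes Ccl3, Ccl4 and Ccl22, the cytokine genes Ifng, Il18 and Il10, and the TNF superfamily genes Tnf, Lta, Ltb and Tnfsf14. The genes were taken as noncontrol probes whose RefSeq accession maps to these symbols, which gave 10 probes, 1 per gene, of 55681 noncontrol probes on the array. The symbols were chosen by hand with earlier results of these arrays known, namely the levels and differences over the same 4 groups, and so were in part selected on the values described here. The adjusted p-values below therefore set each difference against the spread between arrays and are not independent evidence for the choice of genes.

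Purified cells came from male C57BL/6J mice, labelled WT or Bach2-/-, and were profiled at 0 h or after 24 h of culture with Fab' against mouse IgM (10 µg/mL), a stimulus through the B cell receptor. The 4 groups were thus WT 0 h, WT 24 h, Bach2-/- 0 h and Bach2-/- 24 h, with 3 one-colour Agilent arrays each. The series is about the weak proliferation of the mutant cells after this stimulus, and here the same design was used to compare cytokine genes by genotype and time. No unstimulated 24 h culture was among the groups, so time in culture and the stimulus cannot be told apart. The labels give no age, do not describe the Bach2 allele and do not say whether replicates were different mice. What the p-values measure is then the spread among these arrays only, which may be technical.

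A level is the log2 of a probe's signal relative to the 75th percentile of its array, so 1 unit is a doubling, and 0 is that percentile. Levels are compared between groups for 1 probe at a time, never between probes, apart from sums over lists of marker genes. Differences are given as log2 ± standard error, with p-values from limma (2-sided, Benjamini-Hochberg adjusted over all 22751 genes tested), and a gene passed at an adjusted p under 0.05. The number of arrays limits the precision.

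Array 1 of each group was on slide 2 (4 arrays) and arrays 2 and 3 were on slide 1 (8 arrays). The 75th percentile of the signal ran from 87.4 on Bach2-/- 24 h array 2, the dimmest array, to 307. Spots well above background made up 50.9% to 66.7% of each array. Bach2-/- 0 h array 1 had 0 of 4 Y-linked genes above background although labelled male, whereas the other arrays had 3 or 4. These arrays, Bach2-/- 0 h array 1 and Bach2-/- 24 h array 2, are called the doubted arrays, and calls of the genes given with values below that changed without both are stated. Of the Bach2 probes, 1 was above background on each of the 6 WT arrays and on none of the Bach2-/- ones, and another, of unstated place relative to the deletion, read 3.22 to 3.99 in WT and -0.855 to 1.33 in Bach2-/- cells (log2 level). All 11 B cell markers on the array, among them Cd79a and Pax5, were above background on every array. Their levels were not equal across groups. Over 24 h 8 of them fell in WT cells and 9 in Bach2-/- cells, against 20.5% and 13.3% of all genes called in either direction. At 24 h Cr2 was lower in Bach2-/- cells, where 3% of all genes were called. With replicate number as a block 6 of the 11 differed, against 18.7%. At 0 h Cr2 already read 6.72 to 7.12 in WT and 5.61 to 6.24 in Bach2-/- cells, without overlap, though it did not pass.

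The 10 genes fell into a few patterns. Ccl3, Ccl4 and Ifng rose with stimulation in both genotypes, and at 24 h all 3 were higher in Bach2-/- cells. Ifng reached 20.2-fold more in Bach2-/- cells at 24 h, and its 24 h change differed between the genotypes, while the changes of Lta and Tnfsf14 passed that test with replicate number as a block and not without one. Lta and Ltb fell in both genotypes, and Tnfsf14 rose in both but was lower in Bach2-/- cells at 24 h. Il18 was lower and Il10 was higher in Bach2-/- cells at 24 h, while Tnf passed no test and Ccl22 was above background on 1 of 12 arrays.

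**Figure D1:**
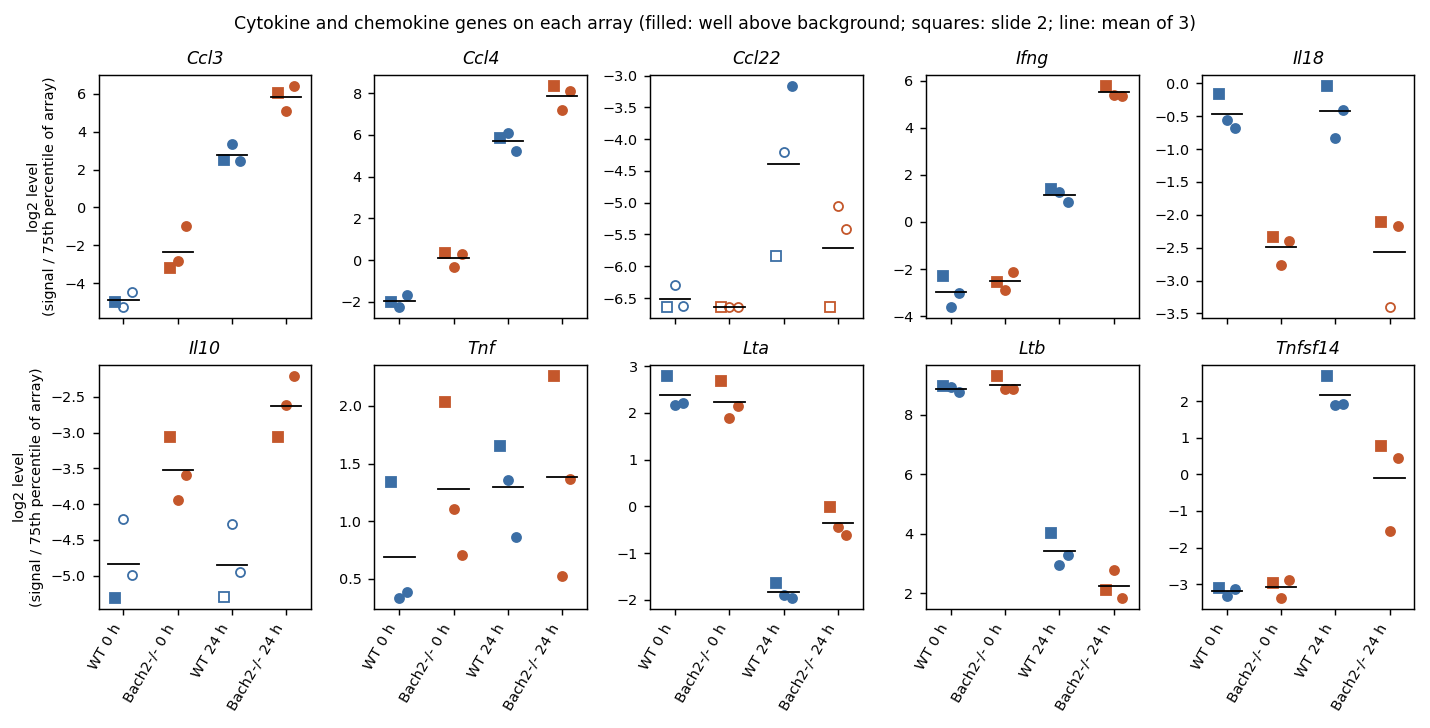
Log2 level of each of the 10 genes on every array (vertical axis, signal over the 75th percentile of its array), by group on the horizontal axis. Filled points are well above background, squares are the slide 2 arrays and lines are means of 3 arrays. Ccl3, Ccl4 and Ifng are highest on the Bach2-/- 24 h arrays, Ltb and Lta are highest at 0 h, and Tnf overlaps in all 4 groups. The vertical scales differ between panels.

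The sequence just before the start site of RefSeq (build GRCm38.p6) was available for 8 of the 10 genes; Ccl4 and Il10 have no entry. Windows of 250 bases are shown for Ccl3 and Ifng, which rose most in Bach2-/- cells among those with a window, for Ltb, which fell most, and for Tnfsf14, which holds the AP-1 core. They are written 5′ to 3′ on the gene's strand, with motif matches in capitals.
Ccl3, chr11:83649379-83649628, minus strand: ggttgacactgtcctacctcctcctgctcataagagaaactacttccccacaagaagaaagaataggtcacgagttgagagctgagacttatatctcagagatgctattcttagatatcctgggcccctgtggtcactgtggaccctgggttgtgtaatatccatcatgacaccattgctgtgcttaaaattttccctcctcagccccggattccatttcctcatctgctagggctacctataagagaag
Ifng, chr10:118440796-118441045, plus strand: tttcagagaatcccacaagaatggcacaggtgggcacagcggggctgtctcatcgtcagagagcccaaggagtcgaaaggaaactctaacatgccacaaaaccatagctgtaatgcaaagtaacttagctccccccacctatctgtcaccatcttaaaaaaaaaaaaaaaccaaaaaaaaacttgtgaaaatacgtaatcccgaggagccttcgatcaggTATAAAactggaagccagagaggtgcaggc
Ltb, chr17:35194257-35194506, plus strand: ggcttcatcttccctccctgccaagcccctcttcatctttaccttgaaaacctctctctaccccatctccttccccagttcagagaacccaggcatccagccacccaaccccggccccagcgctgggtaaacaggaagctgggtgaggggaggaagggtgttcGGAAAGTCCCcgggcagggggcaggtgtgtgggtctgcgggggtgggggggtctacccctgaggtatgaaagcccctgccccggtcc
Tnfsf14, chr17:57194182-57194431, minus strand: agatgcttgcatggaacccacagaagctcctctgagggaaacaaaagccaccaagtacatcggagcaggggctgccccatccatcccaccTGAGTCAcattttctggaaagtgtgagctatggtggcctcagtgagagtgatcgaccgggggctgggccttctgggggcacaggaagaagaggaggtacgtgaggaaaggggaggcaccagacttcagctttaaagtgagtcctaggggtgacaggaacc

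The motifs searched were the AP-1 core TGANTCA, a longer form of it with TGC directly in front, which resembles the MARE to which BACH and MAF proteins bind, and the NF-kB motif, a GGG and a TTTCC with 2 free bases between them, all on both strands, and TATAAA on the gene's strand. Of 32851 RefSeq windows of this length, 6.75% held the AP-1 core, 0.353% the longer form, 1.41% the NF-kB motif and 7.59% TATAAA. The Ifng window held TATAAA with its first base 30 bases before the start site, as did that of Tnf at 29 bases and that of Lta at 167 bases. The Ltb window held an NF-kB match on the minus strand, 87 bases before the start, and the Tnfsf14 window an AP-1 core at 160 bases. None of the 4 motifs was found in the windows of Ccl3, Ccl22 and Il18, which says only that these letters are not there. A match is a description and was not tested as a binding site.

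Ccl3 and Ccl4 encode inflammatory chemokines that attract macrophages and lymphocytes, and they lie next to each other in the genome (RefSeq, GRCm38.p6). For the log2 level of Ccl3 the WT 0 h arrays read -4.96, -5.25 and -4.46 and the Bach2-/- 0 h arrays -3.18, -2.84 and -0.995. After 24 h the level was 2.49, 3.34 and 2.43 in WT cells and 6.02, 5.08 and 6.42 in Bach2-/- cells. No groups overlapped, and of the WT 0 h arrays only array 1 was well above background. Ccl3 rose by 7.64 ± 0.55 in WT cells (limma adjusted p = 7.46e-06) and by 8.18 ± 0.55 in Bach2-/- cells (2.59e-06), which is 199-fold and 290-fold. With normexp the rises of Ccl3 were 4.38 and 6.59, and without Bach2-/- 0 h array 3 the second was 8.85. At 24 h it was 8.51-fold higher in Bach2-/- cells (3.09 ± 0.55, adjusted p = 0.00972).

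At 0 h Ccl3 was higher by 2.55 ± 0.55 on average in Bach2-/- cells and did not pass (adjusted p = 0.0751), but it passed with the replicate block (0.0167), a slide block (0.0238) and quantile normalization (0.049). It was 0.69 with normexp (adjusted p = 1) and 1.88 without Bach2-/- 0 h array 3 (0.205). The 24 h difference of Ccl3 lost its call on slide 1 alone (adjusted p = 0.0649), without WT 24 h array 3 (0.0521) and without Bach2-/- 24 h array 3 (0.0513). The rises of Ccl3 in the genotypes differed by 0.54 ± 0.77 (adjusted p = 0.932), with a 95% interval of -1.16 to 2.24 that does not show them to be alike.

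Ccl4 followed the same order of groups. At 0 h its level read -1.998, -2.26 and -1.69 in WT cells and 0.34, -0.32 and 0.29 in Bach2-/- cells. With stimulation it read 5.84, 6.11 and 5.25 in the former and 8.37, 7.19 and 8.10 in the latter. Again no groups overlapped, and each array was well above background. Ccl4 was 4.23-fold higher in Bach2-/- cells at 0 h (2.08 ± 0.36, limma adjusted p = 0.0226) and 4.45-fold higher at 24 h (2.15 ± 0.36, adjusted p = 0.0064). It rose by 7.71 ± 0.36 in WT cells (1.5e-06) and by 7.78 ± 0.36 in Bach2-/- cells (2.25e-07), and these rises differed by 0.07 ± 0.50 (adjusted p = 0.989, 95% interval -1.03 to 1.17). The genotypes thus stood apart by a similar amount at both times, with the interval of the difference allowing about 1 unit either way.

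The 0 h call of Ccl4 was lost with normexp background correction (1.28, adjusted p = 0.365), on slide 1 alone (0.12), without WT 0 h array 1, 2 or 3 (0.0815, 0.111 and 0.0679) and without Bach2-/- 0 h array 1 or 3 (0.106 and 0.119). Its 24 h call was lost with only the compared groups fitted (0.0571). The Ccl4 difference within slide 1 was 1.96 at 0 h and 1.97 at 24 h, and within slide 2 it was 2.34 and 2.53.

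Over the 12 arrays, the gene whose gene-centred log2 values were nearest to those of Ccl3 was Ccl4, with a root-mean-square difference of 0.63. Next were Pdgfa, a growth factor gene (1.08), and Pdcd1, which encodes the inhibitory receptor PD-1 (1.12). Nearest to Ccl4 were Ccl3 (0.63), the receptor tyrosine kinase gene Axl (0.66) and Pdcd1 (0.72). These are descriptions of the same 12 arrays. The median genotype difference of 9 neutrophil markers was 2.29 at 0 h and 2.85 at 24 h, and 0 of them passed. Of 7 macrophage and monocyte markers tested, Ms4a7 was higher in Bach2-/- cells at both times and Lyz2 at 24 h. Csf1r and Adgre1 of that list overlapped at both times. The part of such markers in the Ccl3 and Ccl4 differences was not tested.

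Ccl22 encodes a chemokine for cells bearing Ccr4. Its probe was well above background on WT 24 h array 3 alone, at a level of -3.16, and 5 of its 12 values lay at the floor of the scale. The other WT 24 h arrays read -5.83 and -4.20 and the Bach2-/- 24 h arrays -6.64, -5.06 and -5.42, so the genotypes overlapped. Ccl22 was left out of the tests because no group had 3 arrays above background. With every probe kept, its 24 h change in WT cells came to 2.13 (adjusted p = 0.0372), with 1 of the 6 arrays concerned above background.

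Ifng encodes interferon gamma, a macrophage-activating cytokine best known from T cells and NK cells that B cells can also make. The WT 0 h arrays read -2.30, -3.62 and -3.02 and the Bach2-/- 0 h arrays -2.54, -2.91 and -2.10. Stimulated WT and Bach2-/- cells parted: the level was 1.40, 1.25 and 0.84 in WT cells and 5.78, 5.39 and 5.33 in Bach2-/- cells. The genotypes overlapped at 0 h and lay far apart at 24 h, and all 12 arrays were well above background. The 0 h difference was 0.46 ± 0.35 (limma adjusted p = 1). At 24 h Ifng was 20.2-fold higher in Bach2-/- cells (4.34 ± 0.35, adjusted p = 4.92e-05).

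Ifng rose in WT cells by 4.14 ± 0.35 (17.6-fold, limma adjusted p = 2.05e-05) and in Bach2-/- cells by 8.02 ± 0.35 (259-fold, 1.47e-07). The rise in Bach2-/- cells exceeded that in WT cells by 3.88 ± 0.49 (adjusted p = 0.00527, 95% interval 2.80 to 4.95). This excess was 3.50 on slide 1 and 4.63 on slide 2, and over the 25 alternatives tried it ran from 3.50 to 4.19 with adjusted p of 0.000367 to 0.0323. Of the 9 members tested, Ifng was the one whose 24 h change passed the test of the difference between genotypes, against 0.33% of all genes, and with the replicate block 3 did against 4.29%. The choice of genes used these comparisons, so nothing is read from these shares. With normexp, the rises of Ifng were smaller, at 2.55 and 6.48, and their difference was 3.93.

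Nearest to Ifng over the 12 arrays were the antioxidant gene Srxn1 (root-mean-square difference 0.59), the macrophage-associated gene Cd5l (0.62) and Rgs16, a regulator of G protein signaling (0.66). Markers of other cells that make Ifng were read beside it. Signals of 13 T cell markers, summed on the linear scale relative to the 75th percentile, came to 99.8 to 165 on the WT 24 h arrays and 93.7 to 117 on the Bach2-/- 24 h arrays, against 36.8 to 50.7 at 0 h. Lck, a kinase gene that B cells can also express, made up most of this sum at 24 h and rose in both genotypes. Of the 12 T cell markers tested, Cd8b1, Cd5 and Cd28 were higher in Bach2-/- cells at 24 h. Over all genes 3% passed at 24 h in either direction, and 18.7% with the replicate block. The level of Cd3e, a defining subunit of the T cell receptor complex, was 2.41 to 2.72 in WT cells and 2.13 to 3.44 in Bach2-/- cells at 24 h, which overlapped. Cd3g and Lat of the same list did not overlap, at -3.10 to -1.99 in WT against -1.38 to -1.01 in Bach2-/- cells for Cd3g and -1.80 to -1.68 against -1.16 to -0.546 for Lat, though neither passed. The summed level of 10 NK cell markers was 9.03 to 11 in WT and 10.6 to 15.5 in Bach2-/- cells at 24 h, with 1 of 8 tested (Klre1) higher. Klre1 was above background on 0 of 3 WT and 1 of 3 Bach2-/- 24 h arrays, so this call rests on signals near background. At 24 h 11 dendritic cell markers summed to 315 to 463 in WT and 203 to 455 in Bach2-/- cells, and 10 neutrophil markers to 77.7 to 231 and 148 to 323. Siglech and Ccr7 made up most of the dendritic cell sum and Csf3r most of the neutrophil sum. These sums therefore say little about the other markers. Of the dendritic cell list Itgax, Fscn1 and Batf3 were higher and Flt3 and Ccr7 lower in Bach2-/- cells. Of the 9 neutrophil markers tested 0 passed with limma (3 with the replicate block), and their median difference was 2.85 at 24 h and 2.29 at 0 h. At 24 h S100a9, Ngp, Camp and Ltf were higher in Bach2-/- cells without overlap, and the other neutrophil markers overlapped. The defining NK genes Ncr1 and Klrb1c were not above background on any 24 h array of either genotype. The cytotoxic granule genes Gzma and Nkg7 of the NK list were above background and did not overlap at 24 h, though neither passed. Gzma read -2.36 to -1.85 in WT against -1.15 to -0.868 in Bach2-/- cells, and Nkg7 2.57 to 3.01 against 3.07 to 3.50. The part of these markers in the Ifng result was not tested, and in bulk RNA fewer cells of a type and less RNA per cell cannot be told apart.

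Il18 encodes a cytokine of the interleukin-1 family that is cut into its active form by Casp1 and enhances Ifng production. WT cells had levels of -0.17, -0.56 and -0.68 at 0 h and -0.04, -0.83 and -0.41 at 24 h. Bach2-/- cells had -2.33, -2.76 and -2.39 at 0 h and -2.10, -3.40 and -2.17 at 24 h, where array 2 was not well above background. The genotypes did not overlap at either time, and within a genotype the times did. Il18 was lower in Bach2-/- cells by 4.08-fold at 0 h (-2.03 ± 0.36, limma adjusted p = 0.0273) and by 4.4-fold at 24 h (-2.14 ± 0.36, adjusted p = 0.00732). Its 24 h change was 0.04 ± 0.36 in WT cells and -0.06 ± 0.36 in Bach2-/- cells (adjusted p = 0.956 and 0.962), with 95% intervals of -0.74 to 0.83 and -0.85 to 0.73.

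The 0 h call of Il18 was lost with quantile normalization (adjusted p = 0.105), normexp (-1.02, 0.0779), no filter (0.0523), on slide 1 alone (0.0926), without WT 0 h array 1, 2 or 3 (0.11, 0.0994 and 0.0925) and without Bach2-/- 0 h array 1, 2 or 3 (0.0811, 0.125 and 0.107). Its 24 h call was lost with only the compared groups fitted (0.0722), and normexp gave a difference of -0.91 there (0.047). The summed level of 13 macrophage and monocyte markers, which mark cells known to express Il18, was 9.36 to 12.6 in WT and 9 to 20 in Bach2-/- cells at 24 h. Lyz2 and Ms4a7 of 7 tested were higher in Bach2-/- cells, where Il18 was lower, and their part in this result was not tested.

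Il10 encodes an anti-inflammatory cytokine that defines regulatory B cells. WT cells had levels of -5.31, -4.21 and -4.99 at 0 h and -5.30, -4.28 and -4.95 at 24 h, and among these only WT 0 h array 1 was well above background. Bach2-/- cells, above background on all arrays, had -3.06, -3.94 and -3.59 at 0 h and -3.05, -2.61 and -2.21 at 24 h. All Bach2-/- arrays lay above all WT arrays. The filter kept Il10 only through the Bach2-/- groups, where it is high, since no WT group had 3 arrays above background. Because no WT 24 h array measured it, the 24 h difference is given as a bound. Il10 was at least 3.52-fold higher in Bach2-/- cells (measured means -2.63 and -4.84). The limma adjusted p of 0.00832 is that of the fitted difference, 2.22 ± 0.38. The bound sets the Bach2-/- mean on each WT array against the lowest signal that counts as well above background, or the probe's own where that is higher. It holds for the main background correction alone and has no error term, so it is not a confidence limit. The same goes for each "at least" below, where the p-value is likewise that of the fitted difference. With normexp the fitted difference was 0.52, which is below the bound, and the call was lost (adjusted p = 0.64). At 0 h the difference was 1.31 ± 0.38 (adjusted p = 0.276), and the change over 24 h in Bach2-/- cells was 0.90 ± 0.38 (adjusted p = 0.172), which passed on slide 1 alone (1.35, 0.0289).

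Tnf, Lta and Ltb lie in 1 gene cluster (RefSeq, GRCm38.p6). Tnf encodes the inflammatory cytokine that gives the family its name. The WT 0 h arrays read 1.34, 0.34 and 0.39 and the Bach2-/- 0 h arrays 2.04, 1.10 and 0.71. Stimulated cells had 1.65, 1.36 and 0.86 in WT cells and 2.26, 0.53 and 1.36 in Bach2-/- cells. All groups overlapped, and in each group array 1, on slide 2, was the highest. The genotype difference of Tnf was 0.60 ± 0.48 at 0 h (limma adjusted p = 1) and 0.09 ± 0.48 at 24 h (0.967), with 95% intervals of -0.46 to 1.65 and -0.96 to 1.15. Its 24 h change was 0.60 ± 0.48 in WT cells (0.452) and 0.10 ± 0.48 in Bach2-/- cells (0.958).

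Lta and Ltb encode the lymphotoxin subunits, which together form a membrane complex that signals through Ltbr and maintains follicles in the spleen. For Lta the WT 0 h arrays read 2.78, 2.17 and 2.22 and the Bach2-/- 0 h arrays 2.68, 1.89 and 2.15, which overlapped. Stimulated cells had -1.64, -1.89 and -1.96 in WT cells and -0.01, -0.45 and -0.61 in Bach2-/- cells, which did not. Lta fell by 4.22 ± 0.28 in WT cells (18.6-fold, limma adjusted p = 5.12e-06) and by 2.60 ± 0.28 in Bach2-/- cells (6.05-fold, 8.67e-05). At 24 h it was 2.77-fold higher in Bach2-/- cells (1.47 ± 0.28, adjusted p = 0.0162). The falls differed by 1.62 ± 0.40, which did not pass (adjusted p = 0.194) but did with the replicate block (0.00392) and a slide block (0.00252). The 24 h call of Lta was lost with normexp (0.91, adjusted p = 0.149), with only the compared groups fitted (0.0846), without WT 24 h array 2 or 3 (0.0653 and 0.0792) and without Bach2-/- 24 h array 1 (0.0555).

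Ltb moved down further. Before stimulation its level was 8.96, 8.92 and 8.75 in WT cells and 9.29, 8.85 and 8.85 in Bach2-/- cells. After it, the level was 4.01, 2.95 and 3.27 in the former and 2.10, 2.79 and 1.84 in the latter. The genotypes overlapped at 0 h, and at 24 h every Bach2-/- array lay below every WT array. Ltb fell by 5.47 ± 0.32 in WT cells (44.2-fold, limma adjusted p = 2.47e-06) and by 6.75 ± 0.32 in Bach2-/- cells (108-fold, 3.19e-07). The genotype difference at 24 h was -1.17 ± 0.32 and did not pass (adjusted p = 0.0953). It passed with the replicate block (0.0188), a slide block (0.0183), without Bach2-/- 24 h array 2 (0.0452) and without both doubted arrays (0.0475). At 24 h the signs of the genotype difference were thus opposite for the measured means of Lta, higher, and Ltb, lower, in Bach2-/- cells.

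Tnfsf14 encodes LIGHT, a ligand of Tnfrsf14 and Ltbr that costimulates T cells. The WT 0 h arrays read -3.10, -3.34 and -3.14 and the Bach2-/- 0 h arrays -2.98, -3.38 and -2.90, which overlapped. Stimulated cells had 2.68, 1.90 and 1.93 in WT cells and 0.78, -1.55 and 0.45 in Bach2-/- cells, all of the latter below the former. Tnfsf14 rose by 5.36 ± 0.50 in WT cells (41.1-fold, limma adjusted p = 4.24e-05) and by 2.98 ± 0.50 in Bach2-/- cells (7.88-fold, 0.00185). It was lower by 4.85-fold in Bach2-/- cells at 24 h (-2.28 ± 0.50, adjusted p = 0.0331), and the rises differed by -2.38 ± 0.71 (0.351, and 0.04 with the replicate block). The low value on Bach2-/- 24 h array 2, the dimmest array, stood apart from the others of its group. Without that array the 24 h difference was -1.55 (adjusted p = 0.0215) and the rise in Bach2-/- cells 3.70. The 24 h call was lost with no filter (adjusted p = 0.0529), only the compared groups fitted (0.193), slide 1 alone (0.0567), without WT 24 h array 1, 2 or 3 (0.129, 0.078 and 0.0891) and without Bach2-/- 24 h array 3 (0.0513). With normexp the rises were 3.37 and 1.69.

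**Figure D2:**
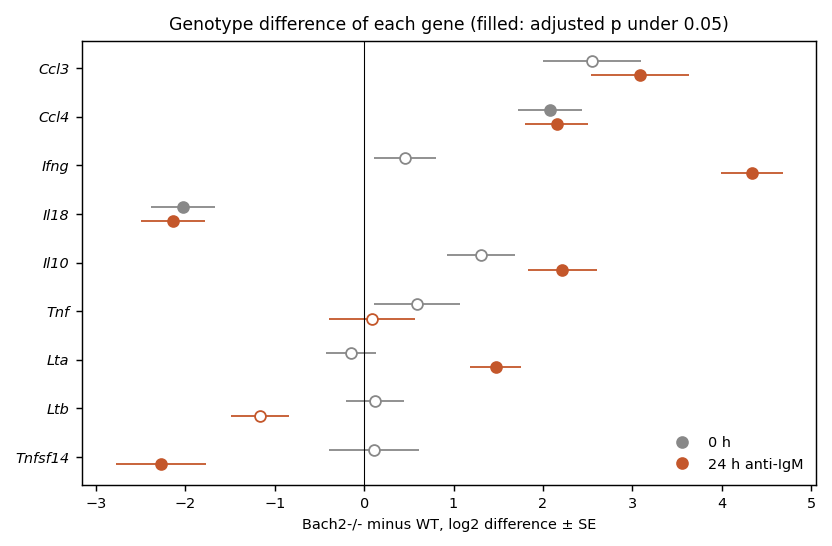
Difference between Bach2-/- and WT cells for the 9 tested genes at 0 h (grey) and 24 h (orange), in log2 units with standard errors (n = 3 arrays per group). Filled points have a limma adjusted p under 0.05. Ifng moves from 0.46 at 0 h to 4.34 at 24 h, and Tnf lies near 0 at 24 h. Ccl3 is at 2.55 and 3.09, Ccl4 at 2.08 and 2.15 and Il18 at -2.03 and -2.14.

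Across the members, Ccl4 was higher and Il18 lower in Bach2-/- cells at 0 h, 2 of 9 tested, against 0.629% of all genes tested by limma, and 4 of 9 had groups that did not overlap, against 12.1%. At 24 h Ccl3, Ccl4, Ifng, Il10 and Lta were higher and Il18 and Tnfsf14 lower, 7 of 9, against 3%, and 8 of 9 did not overlap, against 15.4%. With the replicate block the counts were 3 of 9 at 0 h, against 3.73%, and 8 of 9 at 24 h, against 18.7%. The median difference of the 9 genes was 0.46 at 0 h and 1.47 at 24 h, and over all genes 0.03 and -0.05. Il10 entered these counts only through the Bach2-/- groups, where it is high. The members were chosen with these comparisons known, so nothing is read from the shares.

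The 24 h change passed for 6 of 9 members in each genotype. In WT cells Ccl3, Ccl4, Ifng and Tnfsf14 rose and Lta and Ltb fell, against 20.5% of all genes, and in Bach2-/- cells these 6 genes again passed in those directions, against 13.3%. Groups did not overlap for 6 of 9 in WT cells, against 38.2%, and 7 of 9 in Bach2-/- cells, against 25.1%. The genotype and time comparisons share arrays, so they are set side by side and not correlated. All 12 of these calls held under every alternative tried, although with normexp the rise of Ccl3 in WT cells was 4.38.

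**Figure D3:**
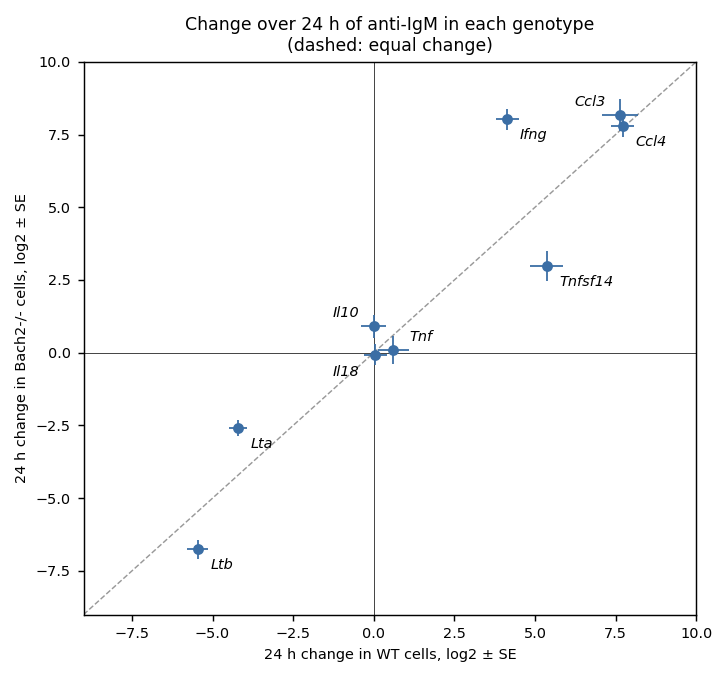
Change over 24 h of anti-IgM in WT cells (horizontal) against Bach2-/- cells (vertical) for the 9 tested genes, in log2 units with standard errors, n = 3 arrays per group. The dashed line is equal change. Ccl3 and Ccl4 lie on or near it at 7.64 to 8.18, Ifng lies above it at 4.14 and 8.02, and Tnfsf14 lies below it at 5.36 and 2.98. Both axes share the WT or Bach2-/- arrays of the genotype comparisons.

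Other genes of the same system were read as 7 lists, chosen with earlier results of these data known, in which 87 genes were tested. At 24 h 16 were higher and 5 lower in Bach2-/- cells (limma, adjusted over all genes, against 3% called in either direction), and at 0 h 4 were higher, against 0.629%. With the replicate block 42 passed at 24 h, against 18.7% of all genes, and 10 at 0 h, against 3.73%. Among chemokine ligands, 16 of 33 listed genes were tested, of which 7 were higher (Ccl1, Ccl5, Ccl6, Ccl9, Cxcl10, Xcl1 and Pf4) and 2 lower (Ccl17 and Cx3cl1) in Bach2-/- cells at 24 h. Ccl6 and Pf4 were above background on 0 of 3 WT 24 h arrays, so their differences are bounds, of at least 2.4-fold and 4.03-fold. The filter kept Pf4 only through the Bach2-/- groups, and Ccl17 and Cx3cl1 only through the WT 24 h arrays. Each was kept through arrays where it is high. With the replicate block 13 of the 16 passed. The median difference was 0.65 against -0.05 over all genes.

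Ccl1, a ligand of Ccr8, had levels at 24 h of -2.87, -1.44 and -1.83 in WT cells and 3.30, 2.25 and 3.83 in Bach2-/- cells, a difference of 5.17 ± 0.61 (limma adjusted p = 0.000672). It was above background on none of the WT 0 h arrays and rose by at least 5.99-fold in WT cells, a call lost with normexp (0.94, adjusted p = 0.145). Ccl9 was at least 13-fold higher in Bach2-/- cells at 24 h (adjusted p = 0.00031), being above background on none of the WT 24 h arrays. The fitted difference of Ccl9 was 1.60 with normexp and 5.04 without Bach2-/- 24 h array 2. Cxcl10, an interferon-inducible chemokine gene, was at least 6.44-fold higher (0.00107), a call lost with normexp (adjusted p = 0.154). Xcl1, a chemokine gene of activated lymphocytes, rose by at least 64.9-fold in Bach2-/- cells (2.92e-06), with a fitted rise of 3.32 under normexp. With the replicate block the 24 h changes of Ccl1, Ccl5, Ccl9 and Xcl1 differed between the genotypes (limma adjusted p = 0.0163, 0.0253, 0.0208 and 0.00793). Without it they did not (0.108, 0.12, 0.128 and 0.068). With the block this was 4 of 16 chemokine ligands and 9 of 87 genes in all lists, against 4.29% of all genes. The filter kept Ccl1 and Xcl1 only through the 24 h groups.

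Among interleukins, interferons and growth factors, 15 of 45 were tested and 1 was higher at 24 h, Il6 (2.33 ± 0.41, limma adjusted p = 0.00928), which is a B cell growth and inflammatory factor. With the replicate block 4 of the 15 passed, against 18.7% of all genes, with Csf1 among them (0.00584, and 0.102 without the block). The Il6 call was lost with normexp (adjusted p = 0.0836), and 1 of 3 WT 24 h arrays was above background. The filter kept Il6 only through the Bach2-/- 24 h arrays, where it is high. Csf1, the macrophage growth factor gene, rose by 3.30 ± 0.43 in WT cells (0.000367) and 4.80 ± 0.43 in Bach2-/- cells (2.16e-05; 5.46 without both doubted arrays), and Il16, a lymphocyte attractant, fell by 2.61 ± 0.24 and 2.82 ± 0.24 (4.21e-05 and 1.7e-05).

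Of 9 tested TNF superfamily ligands of 14, Fasl and Tnfsf8 were higher and Tnfsf10 lower in Bach2-/- cells at 24 h. With the replicate block 5 of the 9 passed, against 18.7% of all genes. Fasl, the ligand of the death receptor Fas, had levels of -1.31, -1.30 and -1.75 in WT cells and 2.51, 0.53 and 1.57 in Bach2-/- cells at 24 h (2.99 ± 0.52, limma adjusted p = 0.00872). Tnfsf8, the ligand of CD30, was higher by 2.61 ± 0.46 (0.00987), a call lost with only the compared groups fitted or on slide 1 alone. The filter kept Tnfsf8 only through the Bach2-/- 24 h arrays, where it is high. Tnfsf10, which encodes the death ligand TRAIL, differed by -1.62 ± 0.27 (0.00724), a call lost with normexp and when the fit held only the compared groups. Of the Bach2-/- 24 h arrays, 1 of 3 was above background for Tnfsf10. Cd70, a T cell costimulator gene, rose by at least 10.1-fold in WT cells (0.000561), with a fitted rise of 1.21 under normexp. The filter kept Cd70 only through the WT 24 h arrays, where it is high.

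Receptors and binding proteins of the members were tested for 11 of 14 genes. Il10ra, a subunit of the Il10 receptor, fell by 2.51 ± 0.34 in WT cells and 3.15 ± 0.34 in Bach2-/- cells (limma adjusted p = 0.000478 and 8.45e-05). Ifngr1, a subunit of the interferon gamma receptor, fell by 1.47 ± 0.22 and 1.72 ± 0.22 (9e-04 and 0.000283). Tnfrsf1b, a Tnf receptor gene, was higher at 0 h by 1.74 ± 0.26 (0.0104), and lost the call in 6 of 20 alternatives, among them without both doubted arrays (1.56, 0.0525), without WT 0 h array 2 or 3 and without Bach2-/- 0 h array 1 or 3 (adjusted p up to 0.0887). With the replicate block 6 of the 11 passed at 24 h, against 18.7% of all genes, with Tnfrsf1b among them (0.00294, and 0.0932 without the block).

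For processing and release, all 9 listed genes were tested. Rhbdf2, which helps Adam17 release Tnf from the membrane, was higher in Bach2-/- cells at 24 h by 0.97 ± 0.21 (limma adjusted p = 0.0281), a call lost in 7 of 20 alternatives, among them without WT 24 h array 2 or 3 and without Bach2-/- 24 h array 1 or 3 (adjusted p up to 0.26). Casp4, an inflammatory caspase gene, rose by 2.93 ± 0.38 in WT cells and 2.39 ± 0.38 in Bach2-/- cells (0.00034 and 0.00116). In the genotype comparison at 24 h 3 of the 9 passed with the replicate block, against 18.7% of all genes.

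Among 12 genes of cytokine mRNA decay, Zc3h12c, which belongs to the Regnase family of ribonucleases, was higher at 24 h by 1.40 ± 0.32 (limma adjusted p = 0.0415). The call was lost in 11 of 20 alternatives, among them without both doubted arrays (1.57, 0.061), without each WT 24 h array and without Bach2-/- 24 h array 1 or 3 (adjusted p up to 0.182). With the replicate block 3 of the 12 passed, against 18.7% of all genes. The median of the list was -0.31 against -0.05 over all genes.

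Of 15 transcription factors linked to Ifng and Il10, Maf, Nfil3 and Prdm1 were higher and Stat4 and Runx3 lower in Bach2-/- cells at 24 h. With the replicate block 8 of the 15 passed, against 18.7% of all genes. Maf, an activator of Il10 in T cells and macrophages, had levels of -4.10, -4.10 and -2.70 on the WT 24 h arrays, where array 2 was not above background, and -0.36, 1.78 and -0.40 on the Bach2-/- 24 h arrays. At 0 h its level was -1.28, -1.41 and -0.77 in WT cells and -3.79, -4.26 and -3.46 in Bach2-/- cells. These 0 h groups did not overlap, though the difference did not pass. Maf fell in WT cells by 2.48 ± 0.57 (limma adjusted p = 0.0101) and rose in Bach2-/- cells by 4.17 ± 0.57 (0.000425). The fall in WT cells was lost with normexp (-0.836, adjusted p = 0.208), and the rise was 3.45 without Bach2-/- 24 h array 2. Prdm1, which encodes Blimp-1, was higher in Bach2-/- cells by 3.39 ± 0.39 at 0 h (0.00191) and 4.94 ± 0.39 at 24 h (4.82e-05). Nfil3 was higher by 2.42 ± 0.33 at 0 h (0.00621) and 1.84 ± 0.33 at 24 h (0.0108), of which the first was lost with normexp and the second with only the compared groups fitted and without WT 24 h array 2 or 3 (adjusted p up to 0.0996). Ahr, a ligand-activated factor, was higher at 0 h by 2.08 ± 0.34 (0.0163), and the call was lost in 6 of 20 alternatives, among them without both doubted arrays (1.78, 0.0694), without WT 0 h array 2 or 3 and without Bach2-/- 0 h array 1 or 3 (adjusted p up to 0.0951).

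**Figure D4:**
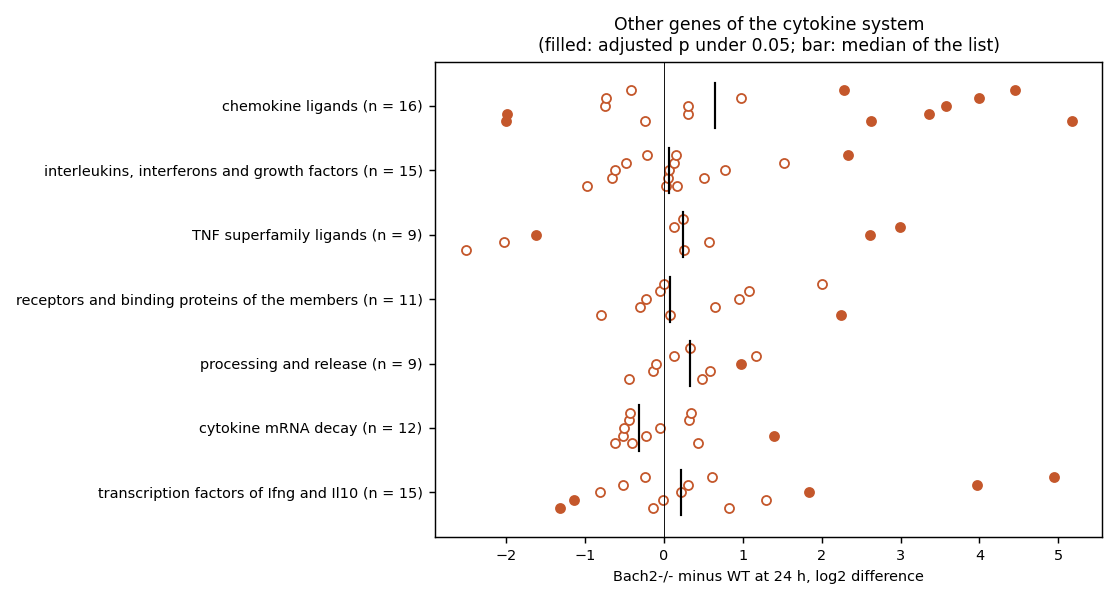
Difference between Bach2-/- and WT cells at 24 h (horizontal axis, log2) for the 87 tested genes of the 7 lists, each point 1 gene from 3 arrays per genotype. Filled points have a limma adjusted p under 0.05 and vertical bars are list medians. The chemokine ligands hold 7 filled points above 0 and 2 below it, and the highest is Ccl1 at 5.17.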

How the data were processed

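Total RNA of 12 samples was labelled with Cy3 and hybridised 1 sample per array. The authors read the scans with Agilent Feature Extraction 10.7.3.1, per the file headers; it gives each spot's processed signal as an intensity after background subtraction and detrending. For normexp (offset 50) the median signal and the median background intensity were taken, per the file headers. A deposited series-wide table has log2 values of unstated scale and centring. Compared with the scanner files, they match the log2 signal scaled to the 75th percentile, then centred probe by probe (Pearson r 0.999326 to 0.999868), with the sign of the signal, though which step came first is unknown. The medians of its columns were, in WT cells, -0.0394, 0.16 and 0.0142 at 0 h and -0.271, 0.114 and 0.0108 at 24 h. In Bach2-/- cells they were -0.255, -0.0974 and -0.0313 at 0 h and -0.27, 0.495 and 0.0713 at 24 h. It was used as an alternative.

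Of 62976 spots per array, 59305 were noncontrol. Spots with outlier flags (112 to 511 per array) were left out, spots of 1 probe averaged, and no member had a saturated spot. The signal was divided by the 75th percentile of its array, floored at 0.01 and taken to log2. A probe had to be well above background in 1 whole group of 3 arrays (30751 were), and the brightest probe on average stood for its gene. A gene could thus enter through the only group where it was high. Accessions were named through RefSeq (GRCm38.p6) for 26413 probes, and 29268 kept the file's name, giving 22751 genes tested, 13140 with a RefSeq symbol.

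Group means of all 12 arrays were fitted in R 4.3.3 using limma 3.58.1, and tables were handled by Python 3.11.15 and the R package data.table, version 1.17.8. The fit had 11.4 degrees of freedom after empirical Bayes and 5 contrasts: between genotypes at each time, between times in each genotype, and the difference of the 24 h changes. With 3 arrays a side, an exact permutation test cannot go below p = 0.1. The fit was tested on simulated data. The members and gene lists were chosen with earlier results of these data known. All members were named with every probe. From the other lists, the 3 genes with the largest difference among those past the test were named for each contrast, in part here; the rest of those called are given by name only, and some results are not reported here. Summed marker levels are sums of linear signals relative to the 75th percentile. The labels give the replicate numbers. Same-numbered arrays deviated together from their group means, at r 0.467 to 0.889 in all 18 pairs. The arrays numbered 1, alone on slide 2, had r 0.781 to 0.889. On slide 1, same-numbered arrays had r 0.467 to 0.751 and arrays of different number 0.247 to 0.642. These ranges overlap and number goes with slide, so the values cannot show whether the numbers pair the samples. The main fit ignores any such pairing. The replicate block is reported for each member whose call changes with it. For the lists it is given as counts at the genotype comparisons and for the difference of the 24 h changes. Alternatives were quantile normalization, normexp, other filters, probe summaries and floors, the deposited table, only the compared groups, replicate and slide blocks, slide 1 alone, each array left out and both doubted arrays left out. The percentile over spots was added after seeing the data.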

Additional observations from a re-analysis of the deposited data

Results flagged for a closer look

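The 24 h change of Ifng differed between the genotypes by a test of the difference itself. The rise in Bach2-/- cells exceeded the rise in WT cells by 3.88 ± 0.49 log2 units (limma adjusted p = 0.00527, n = 3 arrays per group), and every Bach2-/- 24 h array lay above every WT 24 h array. Ifng was put among the members with earlier results of these data known, so this is not independent evidence.

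The 24 h change of Maf differed likewise, by 6.65 ± 0.81 (limma adjusted p = 0.00384). The genotypes did not start alike. At 0 h every Bach2-/- array (-4.26 to -3.46) lay below every WT array (-1.41 to -0.77). The 6.65 thus holds this gap at 0 h as well as the opposite difference of 3.97 at 24 h. Maf was lower on all WT 24 h arrays than on the WT 0 h arrays and higher on all Bach2-/- 24 h arrays than on the Bach2-/- 0 h arrays. The call was lost with normexp (adjusted p = 0.118). Maf was picked from a list of 15 factors with earlier results of these data known.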

How the results depend on the processing

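Of 606 values of single members under alternatives other than leaving out 1 array, 570 kept their direction and side of the threshold, 15 lost a call, 10 gained one and 11 changed sign. Of 324 values with 1 array left out, 281 kept both, 20 lost a call, 1 gained one and 22 changed sign. No call changed sign. The count of members past the test at 0 h, 2 of 9, became 0 with normexp and on slide 1 alone, and 1 with no filter or only probes above background on all 12 arrays. At 24 h the 7 became 4 with probes above background on all 12 arrays, where fewer members were tested, and 3 with only the compared groups fitted, which leaves fewer arrays. For the difference of the 24 h changes the 1 became 3 with the replicate block and 2 with the slide block; causes of the other shifts were not tested. With 1 array left out the counts ran from 0 to 1 at 0 h, from 4 to 8 at 24 h, and stayed at 6, 6 and 1 for the changes and their difference. The replicate block changed the calls of Ccl3 at 0 h (0.0167), Ltb at 24 h (0.0188), and the differences of Lta (0.00392) and Tnfsf14 (0.04), and no other member's call.

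Changes of sign occurred among values that passed no test. The Il10 change in WT cells was 0.26 with quantile normalization, 0.11 with normexp and 0.0399 in the deposited table. The Il18 change in Bach2-/- cells was 0.17 with normexp and 0.44 without both doubted arrays, and the difference of the Il18 changes 0.10 and 0.40. On slide 1 alone the Tnf genotype difference at 24 h was -0.17 and the difference of the Ccl3 changes -0.0688. Without both doubted arrays the Ltb difference at 0 h was -0.0251 and the difference of the Tnf changes 0.30. With 1 array left out in turn, values that changed sign ran from -0.368 to 0.046 for Lta and -0.0251 to 0.195 for Ltb at 0 h, and from -0.345 to 0.517 for Tnf at 24 h. The changes in WT cells ran from -0.149 to 0.246 for Il18 and -0.29 to 0.304 for Il10, and those in Bach2-/- cells from -0.292 to 0.359 for Il18 and -0.336 to 0.527 for Tnf. The differences of the changes ran from -0.171 to 0.42 for Ccl4 and -0.336 to 0.315 for Il18.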
